A study of Mus musculus with 8 samples.

Results

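The genes described here are 8 members of the insulin, AKT and FoxO signalling chain, out of 54532 genes in the count table. They were picked by symbol and are *Insr*, *Irs1*, *Irs2*, *Pik3r1*, *Akt1*, *Akt2*, *Foxo1* and *Foxo3*. All 8 passed the filter on low values, an average of 10 or more counts over the libraries, as did 16971 genes in all. In subcutaneous fat (SAT) on chow 5 of the 8 were over 2-fold higher in the EC-*Tert*-KO library than in the WT library, led by *Irs2*, counting a gene where the whole counting interval of its ratio lay beyond 2-fold. By the same rule 19.0% of all tested genes were higher there and 11.7% lower. Each genotype was 1 library, and the WT library of this pair stood apart in the nuclear RNA *Malat1*. The ratios there also rose with gene length. After removal of that trend 3 of the 5 stayed beyond 2-fold, without *Insr* and *Pik3r1*, against 17.2% of the tested genes higher and 6.91% lower. In the other 3 pairs no member met the rule in either direction. Across the tissues *Foxo1* was lowest in visceral fat (VAT) and *Insr* had lower levels in SAT than in VAT or muscle, but no member passed the test of these differences.

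Insulin binds the insulin receptor, which phosphorylates the adaptor proteins IRS1 and IRS2. These recruit PI3-kinase, whose lipid product activates the AKT kinases. AKT phosphorylates FoxO transcription factors and keeps them out of the nucleus, so that FoxO target genes, among them *Insr* and *Irs2* in several tissues, are less transcribed when insulin is high. In endothelial cells (EC) the same chain carries insulin across the vessel wall and activates nitric oxide synthase, and FOXO1 restrains vessel growth.

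RNA was sequenced from sorted GFP+ (mG+) cells of females aged 8 months, in 1 WT and 1 KO library for each of 4 sources. The sources were inguinal SAT after a high-fat diet (HFD) from month 1 to month 8 and, from chow-fed mice, inguinal SAT, gonadal VAT and the gastrocnemius, a calf muscle. WT mice were Tie2e-cre; TERT+/+; mTmG and KO mice Tie2e-cre; TERTfl/fl; mTmG. Every mouse thus carried the Tie2e-driven Cre and the mTmG reporter, which switches from membrane Tomato to membrane GFP once Cre has acted. The Tie2 promoter is also active in blood cell lineages, so mG+ cells need not be endothelial. Whether a library pooled several mice is not stated.

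Library totals ran from 6214269 to 18855772 counts. Counts of *Tert* went from 114 (WT) to 0 (KO) in HFD-fed SAT, from 70 to 11 in chow-fed SAT and from 24 to 7 in muscle. In VAT it had 3 counts in the library labelled WT and 9 in the library labelled KO, so *Tert* did not separate those 2 labels and each VAT direction below is between libraries as labelled. All 12 endothelial markers were above 3 counts in every library. Their summed level was 358 to 739.9 CPM (counts per 1000000, after TMM scaling) in SAT and 1915 to 2614 CPM in VAT and muscle. Macrophage markers summed to 13429 and 13625 CPM in VAT and neutrophil markers to 13074 and 16950 CPM in muscle. B cell markers (1024 to 1720 CPM) and T cell markers (1037 to 2738 CPM) were highest in SAT. Levels are those of the whole mG+ fraction, in which fewer cells of a type and less RNA per cell cannot be told apart. The WT library of SAT on chow stood apart in the nuclear RNA *Malat1*, with 292 CPM against 2149 to 5836 CPM in the other 7. In the HFD libraries 13.0% and 13.9% of the tested genes were listed at 0, against 0.312% to 5.73% in the others. No member was at 0 in any library.

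Per kilobase of gene length, *Akt1* had the highest median level over the 8 libraries, at 50.3 CPM per kb, followed by *Irs2* at 39.2 CPM per kb. *Pik3r1* (18.7), *Foxo1* (18.4), *Foxo3* (18.0) and *Akt2* (17.5 CPM per kb) had medians close together, and their ranges over the libraries overlapped. *Insr* lay lower, at 5.98 CPM per kb, and *Irs1* was the least abundant member, at 0.501 CPM per kb. The ratios within gene families kept to 1 side for the adaptors and the kinases: *Irs2* exceeded *Irs1* by 35.4 to 132 times, and *Akt1* exceeded *Akt2* by 1.58 to 3.03 times per kb, in every library.

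**Figure D1:**
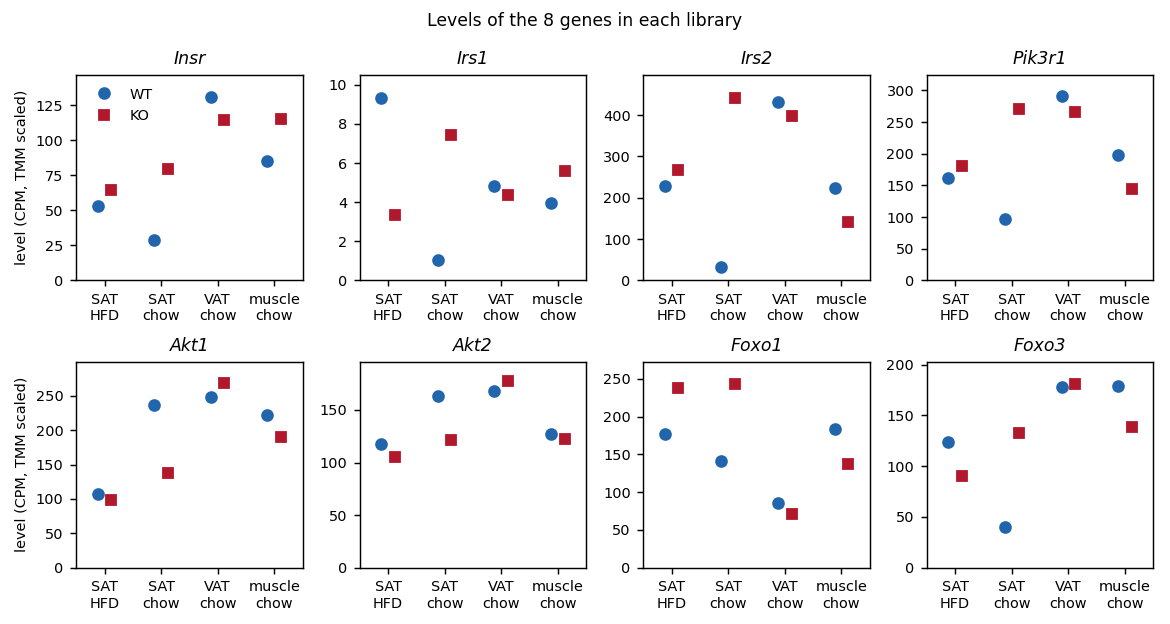
Level of each of the 8 genes (y axis, CPM after TMM scaling, from 0) in the 4 tissue and diet sources (x axis), with 1 point per library: blue circles are WT and red squares KO. The WT library of SAT on chow is the lowest point for *Insr*, *Irs1*, *Irs2*, *Pik3r1* and *Foxo3*, while both VAT points are the lowest for *Foxo1*, at 86.0 and 70.9 CPM.

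*Insr* encodes the insulin receptor, a tyrosine kinase (chr8:3122061-3279617, minus strand, GRCm38, up to 21 exons). Its level was 53.1 (WT) and 64.5 CPM (KO) in HFD-fed SAT, 29.0 and 79.3 CPM in chow-fed SAT, 131 and 115 CPM in VAT, then 85.2 and 115 CPM in muscle. All 4 VAT and muscle libraries lay above all 4 SAT libraries, while VAT and muscle overlapped.

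*Irs1* and *Irs2* encode the adaptors that the receptor phosphorylates. *Irs1* (chr1:82233101-82291416, minus strand) had 17 to 123 counts per library. Its level was 9.33 (WT) and 3.32 CPM (KO) in HFD-fed SAT, 1.03 and 7.41 CPM in chow-fed SAT, 4.81 and 4.35 CPM in VAT, then 3.94 and 5.58 CPM in muscle. The sources overlapped, and the highest and the lowest library were both WT libraries of SAT. Of the exon bases of *Irs1*, 30.9% are shared with *Gm9747* on the other strand, which was listed at 0 in all 8 libraries. Whether counting used strand is not given in the sources used here.

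*Irs2* (chr8:10984681-11008458, minus strand) is the adaptor that fasting and FoxO activity raise in liver. Its level was 229 (WT) and 267 CPM (KO) in HFD-fed SAT, 33.4 and 441 CPM in chow-fed SAT, 433 and 397 CPM in VAT, then 225 and 142 CPM in muscle. The KO library of SAT on chow was the highest of the 8 and the WT library of the same source the lowest. Both muscle libraries lay below both VAT and both HFD libraries.

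RefSeq promoter windows, running from 250 bases before to 50 bases after a start of transcription on GRCm38.p6, were at hand for 7 of the 8 members, 12 windows in all, with none for *Insr*. Those of *Irs1* (chr1:82291390-82291689, minus strand) and *Irs2* (chr8:11008880-11009179, minus strand) are shown because these 2 genes had the widest KO over WT ratios. Their windows also share 2 of the searched motifs, which no other member window holds. Of these motifs, CACGTG was searched only after the sequences had been seen. The windows are written 5′ to 3′, with capitals on the letters TTGTTTTG (the insulin response sequence CAAAACAA on the other strand) and, in both, the E-box CACGTG.
Irs1: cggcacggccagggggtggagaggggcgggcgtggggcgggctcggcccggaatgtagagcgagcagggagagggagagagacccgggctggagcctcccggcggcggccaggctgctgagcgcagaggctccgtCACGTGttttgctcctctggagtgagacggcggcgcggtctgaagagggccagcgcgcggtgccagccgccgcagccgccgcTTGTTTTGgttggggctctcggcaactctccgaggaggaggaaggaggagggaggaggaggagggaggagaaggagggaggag
Irs2: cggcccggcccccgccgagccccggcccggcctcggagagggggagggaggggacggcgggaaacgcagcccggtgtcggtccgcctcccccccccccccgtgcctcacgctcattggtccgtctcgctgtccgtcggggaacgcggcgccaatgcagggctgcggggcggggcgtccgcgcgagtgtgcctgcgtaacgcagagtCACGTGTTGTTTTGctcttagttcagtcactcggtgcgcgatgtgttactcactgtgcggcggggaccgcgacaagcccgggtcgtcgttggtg

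The RefSeq starts of *Irs1* and *Irs2* both lie upstream of the genes as counted. The letters TTGTTTTG began 33 bases before the start in *Irs1* and 38 bases before it in *Irs2*. CAAAACAA, on either strand, occurs in 2.51% of the 32851 windows in the table. CACGTG, a palindrome bound by basic helix-loop-helix factors, began 115 bases before the start in *Irs1* and 44 bases before it in *Irs2*, where it directly precedes TTGTTTTG without overlap. It occurs in 7.15% of all windows, and both motifs together in 0.155%. The FoxO core GTAAACA, on either strand, occurs in 3.65% of all windows and, among the members, in 1 of the *Akt1* windows as TGTTTAC, 161 bases before the start. The motif CACGTG was added after the sequences had been seen, so its sharing by *Irs1* and *Irs2* is no test of rarity. These matches describe letters, and no binding was measured.

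*Pik3r1* encodes p85α, the regulatory subunit that brings PI3-kinase to the IRS proteins (chr13:101680563-101768217, minus strand). Its level was 162 (WT) and 179.9 CPM (KO) in HFD-fed SAT, 97.7 and 271 CPM in chow-fed SAT, 291 and 266 CPM in VAT, then 197 and 145 CPM in muscle. The highest and lowest libraries lay 2.98-fold apart, and only the WT library of SAT on chow was below 100 CPM.

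*Akt1* and *Akt2* encode the kinases that carry the signal to FoxO factors and other substrates. *Akt1* (chr12:112653821-112674884, minus strand) stood at 107 (WT) and 98.5 CPM (KO) in HFD-fed SAT, 236 and 138 CPM in chow-fed SAT, 248 and 269 CPM in VAT, then 222 and 190.3 CPM in muscle. Both HFD libraries lay below the other 6. *Akt2* (chr7:27591552-27640826, plus strand), the isoform best known from glucose uptake in fat and muscle, stood at 118 and 105 CPM in HFD-fed SAT, 163 and 121 CPM in chow-fed SAT, 168 and 178 CPM in VAT, then 127 and 123 CPM in muscle. It varied least of the members, with 1.69-fold between the highest and the lowest library, and 95.6% of the tested genes had a wider range.

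*Foxo1* and *Foxo3* encode the transcription factors at the end of the chain. *Foxo1* (chr3:52268336-52353221, plus strand) stood at 177 (WT) and 238 CPM (KO) in HFD-fed SAT, 141 and 244 CPM in chow-fed SAT, 86.0 and 70.9 CPM in VAT, then 184 and 137 CPM in muscle. Both VAT libraries lay below the other 6. *Foxo3* (chr10:42181841-42276755, minus strand) stood at 124 and 90.8 CPM in HFD-fed SAT, 39.8 and 133 CPM in chow-fed SAT, 178 and 181 CPM in VAT, then 179 and 139 CPM in muscle. All VAT and muscle libraries lay above all SAT libraries. The 2 factors thus changed places between SAT and VAT: the ratio of *Foxo1* to *Foxo3* per kb was 1.24 to 3.09 in the 4 SAT libraries and 0.342 and 0.423 in VAT. In muscle the ratio was nearer 1, at 0.862 and 0.897. There the levels in CPM, not divided by length, were close, at 184 and 179 in WT and 137 and 139 in KO. These ratios were not tested.

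**Figure D2:**
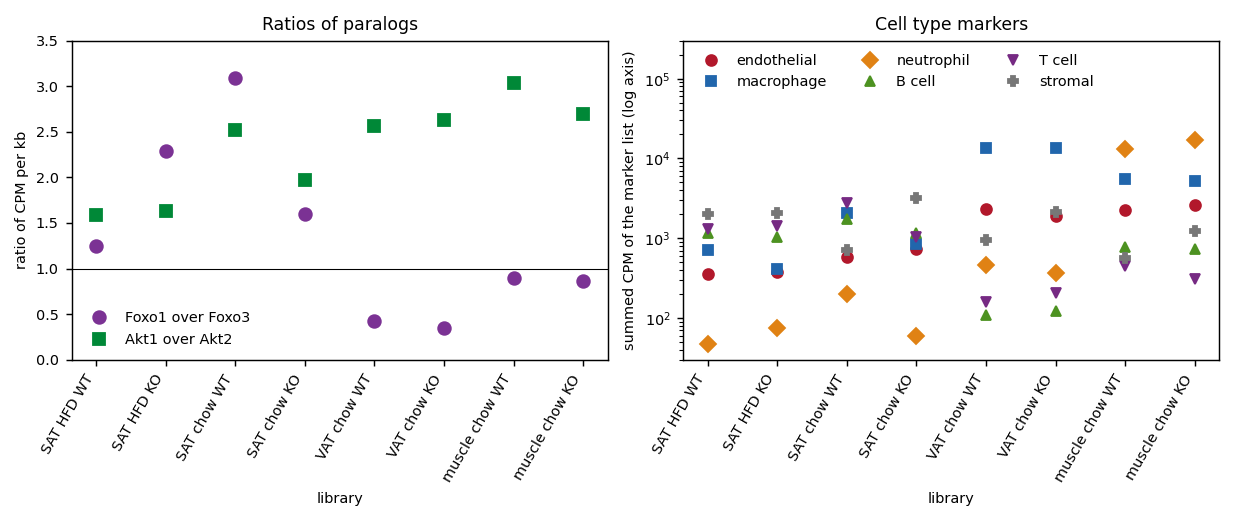
Left, the ratio of levels per kb of *Foxo1* to *Foxo3* (purple circles) and of *Akt1* to *Akt2* (green squares) in each library (x axis), with a line at 1. Right, the summed CPM of 6 marker lists in the same libraries on a log axis. The *Foxo1* to *Foxo3* ratio lies above 1 in the SAT libraries and below 1 in VAT and muscle, and the B and T cell sums are highest in SAT and lowest in VAT.

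The tissue and diet sources were compared in edgeR's quasi-likelihood fit over all genes, with genotype as a term, so that the WT and KO libraries of a source gave the spread. P-values therefore measure the spread between these libraries that a genotype difference shared by all sources leaves. This spread mixes KO effects particular to a source, differences between mice and technical differences, which cannot be told apart. No member passed an adjusted p of 0.05 among the 4 sources, where 7.83% of the tested genes did. Before adjustment 3 members were under 0.05, *Akt1* (edgeR adjusted p = 0.142), *Foxo1* (adjusted p = 0.173) and *Insr* (adjusted p = 0.197).

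Between VAT and SAT on chow, 0 of the 8 members were called higher or lower, against 3.31% of the tested genes higher and 1.74% lower. The nearest to the threshold were *Foxo1*, with a log2 difference of -1.27 ± 0.38 (SE; adjusted p = 0.107), and *Insr*, with 1.31 ± 0.41 (adjusted p = 0.126). Both were called with DESeq2 in place of edgeR, at adjusted p = 0.0425 and 0.0233, where 13.6% of the tested genes were called in either direction. B and T cell markers stood beside *Foxo1*: all 5 B cell and 6 T cell markers were above 3 counts in every library, the B cell sum was 1169 and 1720 CPM in SAT on chow against 108 and 122 CPM in VAT, and the T cell sum 1037 and 2738 CPM against 157 and 207 CPM. Within SAT on chow the B and T cell sums were lower in KO (1169 and 1037 CPM) than in WT (1720 and 2738 CPM). *Foxo1* was higher in KO there, at 244 against 141 CPM. Macrophage markers also differed, with 13625 and 13429 CPM in VAT against 2066 and 840.4 CPM in SAT on chow. *Foxo1* is abundant in naive lymphocytes. The part of any of these cells in the difference was not tested.

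Between muscle and SAT on chow, 0 members were called, with a background of 1.11% higher and 0.147% lower. *Insr* was the member nearest to the threshold, with a log2 difference of 0.97 ± 0.41 (SE; adjusted p = 0.415). Between muscle and VAT, 0 members were called, with a background of 0.884% higher and 1.05% lower, and *Foxo1* came nearest, at 1.03 ± 0.37 (adjusted p = 0.268). Between HFD and chow in SAT, 0 members were called, and the background was 0% in both directions, with 1354 genes under 0.05 before adjustment and 260 genes called by DESeq2. *Akt1* was the only member under 0.05 before adjustment in that comparison, with a log2 difference of -0.84 ± 0.32 (adjusted p = 0.599).

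These counts depended on the SAT libraries on chow. Without the WT library of that source 3 members differed among the sources, *Irs2*, *Akt1* and *Foxo1*, against 14.8% of the tested genes, and *Foxo1* was called lower in VAT than in SAT (adjusted p = 0.0374). Without the KO library 6 members differed among the sources, all but *Irs1* and *Akt2*, against 23.2% of the tested genes. In that setting *Insr*, *Irs2*, *Pik3r1* and *Foxo3* were called between VAT and SAT, against 20.5% of the tested genes, and *Insr*, *Irs2* and *Foxo3* between muscle and SAT, against 10.5%. *Irs2* and *Foxo3* were called there between HFD and chow, against 1.83%, and *Irs2* between muscle and VAT, against 6.91%. *Irs2* was also called between muscle and VAT without the WT library, against 7.10%. With either SAT library on chow left out, that source was a single library with no spread of its own. Calls that involve it are thus no test of a tissue or diet difference. Without the KO library they rest on the WT library, which stood apart in *Malat1*. That library was the lowest of the 8 for *Insr*, *Irs1*, *Irs2*, *Pik3r1* and *Foxo3*. The log2 difference of *Insr* between VAT and SAT was 0.79 without the WT library and 2.01 without the KO library. That of *Foxo1* was -1.63 and -0.80. For *Insr* between muscle and SAT the values were 0.48 and 1.70, and for *Akt1* between HFD and chow -0.39 and -1.16. The *Foxo1* difference between muscle and VAT was 0.63 without the WT library of muscle. Without both, an alternative chosen after seeing the data, 4 members differed among the 3 remaining sources, against 18.4% of the tested genes: *Akt1* (adjusted p = 0.00984), *Foxo1* (adjusted p = 0.025), *Irs2* (adjusted p = 0.04) and *Insr* (adjusted p = 0.0462). There *Irs2* was 2.28-fold lower in muscle than in VAT, with a log2 difference of -1.19 ± 0.24 (SE, adjusted p = 0.0404), where 7.08% of the tested genes were called in either direction.

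Within a source, WT and KO were 1 library each, so no test was possible. A gene was called where the whole 95% interval of the KO over WT ratio, exact for the counts of the 2 libraries, lay beyond 2-fold. The interval covers counting error only and says nothing of the spread between mice. No molecular identifiers are mentioned for these libraries, so repeated copies of a molecule may be counted and the interval may be too narrow.

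In SAT on chow 5 of the 8 members were called higher in KO and 0 lower, against 19.0% of the tested genes higher and 11.7% lower. *Irs2* was 13.2-fold higher (553 and 7314 counts), with a log2 ratio of 3.72 (95% interval 3.60 to 3.85). *Irs1* was 7.04-fold higher (17 and 123 counts), with a log2 ratio of 2.81 (2.11 to 3.68). *Foxo3* was 3.34-fold, *Pik3r1* 2.77-fold and *Insr* 2.73-fold higher. *Foxo1* was 1.73-fold higher, within 2-fold. Both kinases had lower values in KO, *Akt1* by a log2 ratio of -0.78 (-0.85 to -0.70) and *Akt2* by -0.42 (-0.51 to -0.34). In this 1 pair the AKT kinases thus had intervals below 0 and the other members, *Foxo1* included, above 0. Of all tested genes, 40.3% had intervals below 0 there and 40.9% above. The ratios also went with gene length, as given below.

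In SAT on HFD none was called, against 12.7% of the tested genes higher and 11.1% lower. *Irs1* came nearest, 2.78-fold lower in KO (62 and 42 counts), with a log2 ratio of -1.47 and an interval of -2.09 to -0.90. *Foxo1* (0.43) and *Foxo3* (-0.45) went opposite ways, and the other 5 log2 ratios lay between -0.16 and 0.28. Neither *Irs2*, at 0.22 (0.13 to 0.31), nor *Pik3r1*, at 0.15 (0.05 to 0.26), had a ratio near that of SAT on chow.

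In VAT none was called, against 2.40% of the tested genes higher and 2.09% lower, and the log2 ratios of the 8 members ran from -0.28 (*Foxo1*) to 0.12 (*Akt1*). In muscle none was called, against 2.75% higher and 2.05% lower. There *Irs2* had the lowest ratio, at -0.66 (-0.74 to -0.58), 3705 counts in WT and 1966 in KO. *Pik3r1* (-0.45), *Foxo1* (-0.42), *Foxo3* (-0.37) and *Akt1* (-0.22) also had intervals below 0, as did 29.4% of all tested genes. *Insr* (0.43) and *Irs1* (0.50) had intervals above 0, as did 26.7% of all tested genes.

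**Figure D3:**
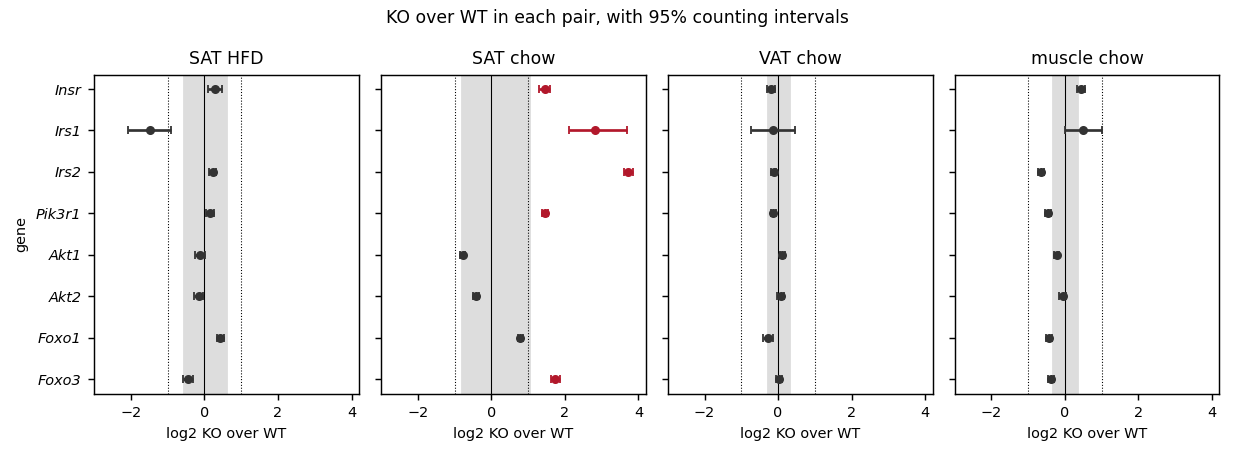
Log2 ratio of KO over WT (x axis) for the 8 genes in each pair, with 95% counting intervals as bars. Dotted lines mark 2-fold, the grey band is the interquartile range of all tested genes, and red points have the whole interval beyond 2-fold. The red points, *Insr*, *Irs1*, *Irs2*, *Pik3r1* and *Foxo3*, are all in SAT on chow.

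The ratios in SAT on chow went up with gene length. The median log2 ratio of all genes there was -0.59 for genes of 1 to 2 kb, 0.36 for genes of 6 to 10 kb and 0.98 for genes over 10 kb, and 40.2% of the genes over 10 kb were called higher. In the other 3 pairs the medians of the 6 length classes stayed between -0.15 and 0.15. *Insr* and *Pik3r1* are over 10 kb, *Irs1*, *Irs2*, *Akt2*, *Foxo1* and *Foxo3* are 6 to 10 kb, and *Akt1*, at 4 to 6 kb, is the shortest member. After removal of this trend, an alternative chosen after seeing the data, 3 members stayed beyond 2-fold, against 17.2% of the tested genes higher and 6.91% lower. *Irs2* then stood at a log2 ratio of 3.71, *Irs1* at 2.22 and *Foxo3* at 1.42, while *Pik3r1* fell to 0.89 and *Insr* to 0.25. Stromal markers also differed in this pair, with all 7 above 3 counts and a sum of 709 CPM in WT and 3211 CPM in KO, as did T cell markers (2738 and 1037 CPM) and macrophage markers (2066 and 840.4 CPM). The part of length, of these cells and of the WT library that stood apart was not tested.

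**Figure D4:**
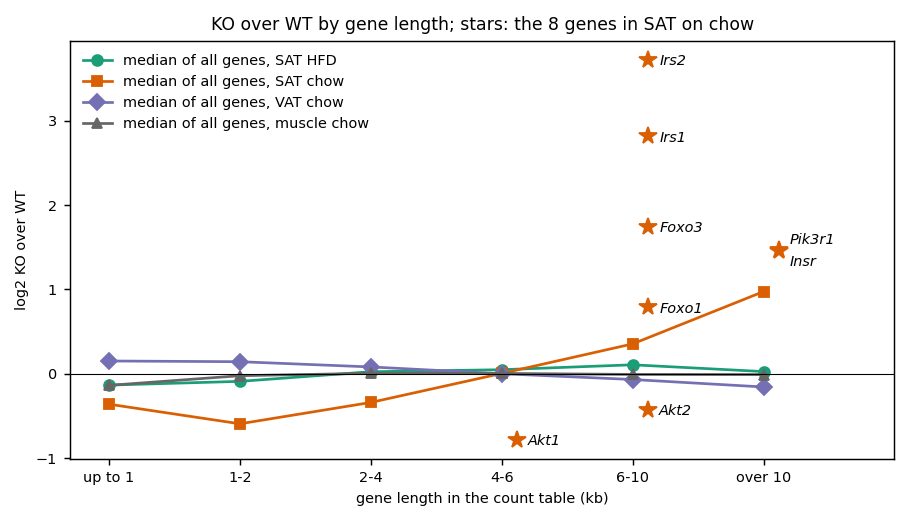
Log2 ratio of KO over WT (y axis) by class of gene length in kb (x axis). Lines join the medians of all genes in each pair, and stars are the 8 genes in SAT on chow. The SAT chow line climbs from -0.59 at 1 to 2 kb to 0.98 over 10 kb, and *Irs2*, *Irs1* and *Foxo3* lie furthest above it.

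Across the 4 pairs no member differed between KO and WT in the fit with source as a block, where 0.00589% of the tested genes passed. The log2 differences ran from -0.25 ± 0.23 (SE, *Akt1*) to 0.61 ± 0.68 (*Irs2*), each with an adjusted p of 1, and no member was under 0.05 before adjustment, while 279 genes were. DESeq2 called 19 genes and none of the members. Without the SAT pair on chow the differences of *Irs1*, *Irs2*, *Pik3r1*, *Foxo1* and *Foxo3* turned negative, at -0.36, -0.18, -0.14, -0.09 and -0.26, none past the threshold.

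A list of 78 other genes of the pathway, in 8 groups, was counted in the same fits. Among the 76 that passed the filter on low values none differed between KO and WT across the pairs, and 10 differed among the 4 sources, where 7.83% of all tested genes did. Between VAT and SAT on chow 4 were higher in VAT and 2 lower, against 3.31% and 1.74% of all tested genes. The largest were *Trib1*, a pseudokinase of the Tribbles family (log2 2.77 ± 0.59 SE, adjusted p = 0.0387; 22.4 and 92.6 CPM in SAT, 370.4 and 353 CPM in VAT), and the docking protein gene *Gab1* (2.65 ± 0.51, adjusted p = 0.0355), which was listed at 0 in both HFD libraries. *Trib2*, of the same family as *Trib1*, fell by 1.62 on the log2 scale (± 0.31 SE, adjusted p = 0.0257), with 72.6 and 104 CPM in SAT on chow and 24.97 and 31.9 CPM in VAT.

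In muscle *Sh2b2*, an adaptor of the insulin receptor, was higher than in SAT on chow (log2 2.27 ± 0.38 SE, adjusted p = 0.0353), and the lymphocyte FOXO1 target *Il7r* was lower (-1.95 ± 0.35, adjusted p = 0.0456). Each was the only pathway gene of 76 called in its direction, against 1.11% of all tested genes higher and 0.147% lower. *Gadd45a*, a stress-response target of FoxO factors, was the only pathway gene called between muscle and VAT (2.15 ± 0.40 SE, higher in muscle, adjusted p = 0.042). Its level was 101 and 99.4 CPM in muscle and 20.5 and 24.4 CPM in VAT. Between muscle and VAT 0.884% of all tested genes were called higher and 1.05% lower. None of the 76 was called between HFD and chow, where 0% of all tested genes were called in either direction.

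In SAT on chow 13 of 75 pathway genes were beyond 2-fold higher in KO, against 19.0% of all tested genes. Another 4 were lower, against 11.7%. The median log2 ratio of the 75 was 0.54, against -0.0044 for all genes of any length. Ratios in this pair rose with gene length, and that trend was not removed from the values of these pathway genes. The highest were *Igf1r*, the receptor of IGF1 (2.22, 95% counting interval 2.02 to 2.42), and *Grb10*, an inhibitor of the insulin receptor (2.19, 1.85 to 2.57). Of 21 FoxO target genes 5 were higher, *Cdkn1b*, *Bcl2l11*, *Fbxo32*, *Sesn3* and *Angpt2*, and 3 lower, among them *Cat* and *Bnip3*, beside the same background. The lowest ratios among those called were *Eif4ebp1*, a translation repressor downstream of mTORC1 (-1.63, -1.98 to -1.30), and *Bnip3* (-1.41, -1.79 to -1.05).

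In SAT on HFD 1 of 73 was higher in KO, *Tsc2*, which encodes a brake on mTORC1 (1.32, 1.10 to 1.56), against 12.7% of all tested genes. In the other direction 4 were lower, against 11.1%, led by *Trib3*, an AKT inhibitor (-2.72, -3.51 to -2.05), and *Eif4ebp1* (-2.64, -3.26 to -2.10). *Eif4ebp1* was therefore below WT in both SAT pairs, but not in the others. Its ratio was 0.59 in VAT (0.33 to 0.86) and 0.13 in muscle (-0.09 to 0.34). *Igf1*, which encodes a ligand of IGF1R, had ratios on both sides: it was lower in SAT on HFD (-1.39, -1.70 to -1.09) and higher in SAT on chow (1.83, 1.60 to 2.08) and muscle (1.33, 1.05 to 1.63). In muscle *Foxo6* was lower, from 35 counts to 2 (-3.60, -6.97 to -1.91). Of 77 pathway genes in muscle, 1 was called higher and 1 lower, against 2.75% and 2.05% of all tested genes. In VAT none of 76 was called, against 2.40% higher and 2.09% lower.

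**Figure D5:**
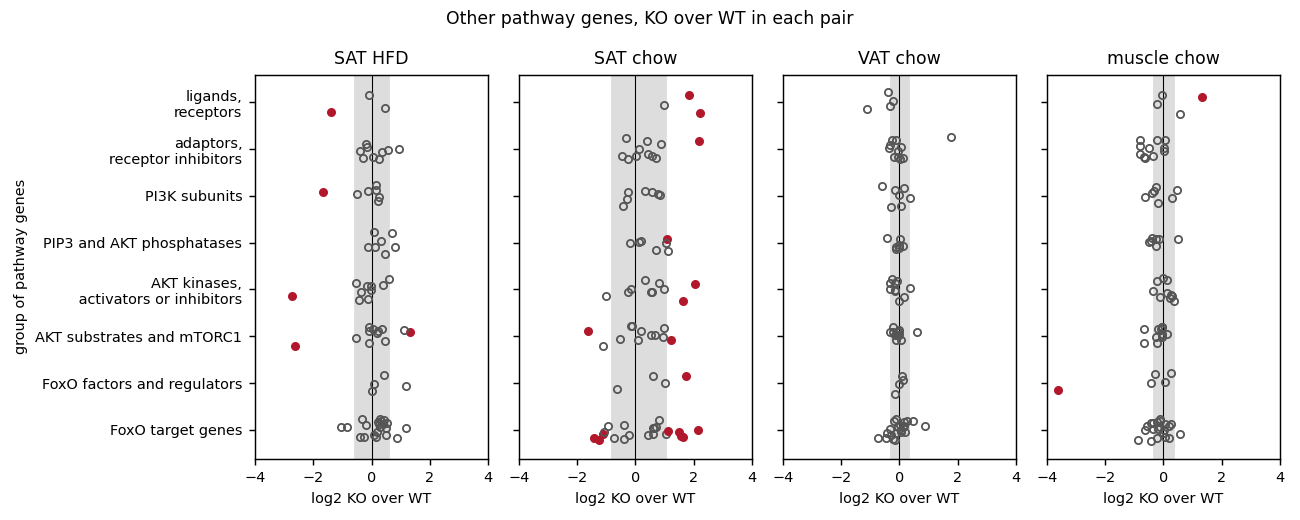
Log2 ratio of KO over WT (x axis) for the other pathway genes by group (y axis, points spread vertically for legibility) in each pair. Filled red points have the whole counting interval beyond 2-fold, and the grey band is the interquartile range of all tested genes. SAT on chow holds 17 red points and VAT none. Of all tested genes 19.0% were called higher and 11.7% lower in SAT on chow, and 2.40% and 2.09% in VAT.

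Over the 8 libraries the genes most like each member, among 10573 genes averaging 100 counts or more, had Pearson correlations of log2 CPM of 0.976 to 0.992. The 2 nearest were *Ptp4a1* and *Tcf4* for *Insr*, *Adamtsl1* and *Bclaf3* for *Irs1*, *Gm44423* and *Kdm6bos* for *Irs2*, *Chka* and *Tob2* for *Pik3r1*, *Spop* and *Itgb2* for *Akt1*, *Arhgef6* and *Mvp* for *Akt2*, *Nfatc3* and *Satb1* for *Foxo1*, and *Arid5b* and *Rlim* for *Foxo3*. With so many genes and 8 libraries that share depth, scaling and cell mixture, such values are a description only.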

How the data were processed

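The authors deposited raw counts per Ensembl gene, whole numbers with no normalization, for 8 libraries. The submitters' processing notes name HISAT2 2.0.5 and GRCm38 (mm10). The counting program, strand use and read length are not given in the sources used here, and for RNA isolation the labels name columns where the methods name Trizol. Counts were scaled with TMM factors (edgeR 4.0.16, R 4.3.3) over genes averaging 10 or more counts and tested by edgeR's robust quasi-likelihood F-test with source and genotype as terms (3 residual degrees of freedom) and Benjamini-Hochberg adjustment over all 16971 genes, at 0.05. Pair ratios are of TMM-scaled CPM with a prior count of 0.5 and exact binomial (Clopper-Pearson) 95% intervals. Gene models came from GENCODE and promoters from RefSeq. The scripts were tested on simulated counts. Named genes were the 8 members, *Tert*, up to 2 pathway genes per direction and comparison with the largest called change, and 2 genes most like each member. *Inppl1* and *Gabarapl1* were the other 2 genes higher in VAT, *Pik3r3* the remaining one lower in SAT on HFD. Pathway genes named beyond this rule were chosen after their values were seen. The members and lists were chosen with earlier results of these data known. Alternatives were other scalings, filters, DESeq2 1.42.0, left-out libraries and a 1.5-fold call. In the pathway list, 1 gene is counted but not reported here.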

Additional observations from a re-analysis of the deposited data

Results flagged for a closer look

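For 5 members the KO over WT ratio was beyond 2-fold in SAT on chow, where 19.0% of all tested genes were higher by that rule, while the counting interval of another pair lay on the other side of 0. Of all tested genes, 34.3% had an interval below 0 in SAT on HFD, 24.7% in VAT and 29.4% in muscle. The share meeting both parts of this rule is not given here. With 1 library per group the difference between pairs was not tested. *Irs1* had a log2 ratio of 2.81 in SAT on chow and -1.47 in SAT on HFD. *Irs2* had 3.72 in SAT on chow against -0.12 in VAT and -0.66 in muscle. *Pik3r1* had 1.47 against -0.13 in VAT and -0.45 in muscle. *Foxo3* had 1.74 against -0.45 in SAT on HFD and -0.37 in muscle. *Insr* had 1.45 against -0.19 in VAT.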

How the results depend on the processing

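The count of 0 members changed by KO across the pairs held under every alternative run for it. With 1 pair left out the log2 difference ranged from -0.36 to 1.003 for *Irs1*, -0.18 to 1.12 for *Irs2*, -0.14 to 0.47 for *Pik3r1*, -0.085 to 0.30 for *Foxo1* and -0.26 to 0.44 for *Foxo3*, negative only without the SAT pair on chow. With all genes that had a count, 2 members differed among the sources (with 3262 of 29627 genes) and 2 between VAT and SAT (7.14%), and with DESeq2 1 (19.7%) and 2 (13.6%). With 1 library left out, members called ranged from 0 to 6 among the sources, 0 to 4 between VAT and SAT, 0 to 3 between muscle and SAT, 0 to 1 between muscle and VAT, and 0 to 2 between HFD and chow. Every count above 0 came from leaving out a SAT library on chow, which left that source with a single library. At each of these highest counts the share of all tested genes called, given above, also exceeded that with all 8 libraries. The rise was thus not particular to the members. Without both SAT libraries on chow, 4 members differed among the sources (18.4% of the tested genes) and 1 between muscle and VAT (7.08%). A 1.5-fold call, in either direction, gave 1 member in SAT on HFD and 7 in SAT on chow, where *Akt1* was lower in KO. The share of all tested genes by that call is not given here, so these counts have no background. Removing the length trend left 3 of 5 in SAT on chow. Other scalings moved the log2 ratio of all genes by up to 0.23 in SAT on chow and 0.17 in muscle and ended no call. The labels carry no replicate numbers. The WT and KO libraries were paired by source in the comparison across pairs, and without that block 0 members were called as well. The cause of these shifts was not tested. Depth limited *Irs1* most, with 17 to 123 counts.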
